A study of Danio rerio with 15 samples.

Results

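The genes described here are 8 transcription factors of the vertebrate surface epithelium. They are the basonuclins bnc1 and bnc2, the p53 relative tp63, the grainyhead-like genes grhl1, grhl2a, grhl2b and grhl3, and the ovo-like gene ovol1a. They were looked up by symbol among the RefSeq accessions of the count tables, with the version number ignored, and where a symbol had several accessions the one with the highest summed count was used. Of the 8 genes, 5 had a matched accession, out of 18545 symbols matched in all, and grhl1, grhl3 and ovol1a were not analysed here. bnc1 was picked by its rise in the mutants of these libraries, so its values are given as a description, with no test.

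The tissue was the pronephric duct of zebrafish larvae at 72 hours post fertilization (hpf), and the study asks what the SWI/SNF subunit gene actl6a does in cilia and kidney development. There were 7 sibling and 8 actl6a mutant libraries. Both groups carried the transgenic Na, K-ATPase alpha1A4:GFP reporter, which is bright in pronephric epithelium, and both were offspring of F1 carriers of a mutation made with CRISPR/Cas9, with the homozygous larvae as mutants. The siblings have the genotype label WT, and whether heterozygous larvae were among them is not given. Each group was prepared from 15 embryos that were loosened with collagenase, after which about 10 green duct fragments were picked by eye. Nothing in the labels says that replicates came from separate clutches, so p-values measure the spread between these libraries, which may in part be technical. All siblings carried one sequencing index and all mutants the other, so an effect of the index and one of the genotype cannot be told apart.

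The zebrafish epidermis at this age has a basal keratinocyte layer under an outer periderm, with ionocytes between them. tp63 specifies the basal layer and keeps its cells dividing, basonuclin 1 is known in mammals from the proliferating keratinocytes of stratified epithelia, and basonuclin 2 is known in zebrafish from the tissue that supports the pigment stripes. Grainyhead-like factors act on junction and barrier genes in many epithelia, and mouse Grhl2 does so in the nephric duct, so members of this family also belong to the tissue that was sampled.

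Total counts per library ranged from 1583052 to 4013852, and a count of 0 allows a level of up to 0.742 to 2.21 CPM (counts scaled to a common library total), which is 3 counts of the library. The mean level of actl6a was 84.2 ± 10.9 CPM over the siblings (SD, n = 7) and 24.9 ± 11.5 CPM over the mutants (SD, n = 8), and all 8 mutants lay below every sibling. Mutant replicates 4, 5, 6 and 8 had 25684 to 27413 detected accessions, more than any other library. Among the siblings, replicate 1 had the most, 23992. The same libraries were the deepest, with 2623014 to 4013852 counts in those mutants and 3084051 in sibling replicate 1. Every other library had at most 2392247 counts, so the number of detected accessions went with depth. Markers of the labelled tissue were present as a sum in every library. The 10 pronephric duct genes, among them the cadherin gene cdh17 and the transporter gene slc12a3, both named as examples, summed to 2948 to 5012 CPM in siblings and 1882 to 6728 CPM in mutants. In mutant replicates 4, 5, 6 and 8 the sum was 1882 to 2263 CPM, below every sibling. Not each marker was counted throughout: hnf1ba was at 0.25 to 0.98 CPM in sibling replicates 1 and 6 and mutant replicates 4 and 8. In the other libraries it was at 107 to 353 CPM. Levels are those of 1 transcript per gene, so a level near 0 need not mean that the RNA of the gene was absent. Of 9 duct genes tested, 1 was higher, evx1 (log2 fold change 3.44, SE 0.44, edgeR adjusted p = 9.78e-05), a homeobox gene of the distal duct. None was lower.

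bnc1 was close to absent from sibling ducts and present in every mutant duct library. In siblings its level ran from 0 to 6.61 CPM, with a median of 0.502 CPM. Sibling replicates 2, 3 and 6 had no count, and the highest value was that of replicate 1, from 22 counts. In mutants the level ran from 9.60 to 193 CPM, with a median of 129 CPM. The lowest mutant was replicate 1, with 13 counts, and the other 7 had 82 to 698 counts. All 8 mutants lay above every sibling, which held for 1.57% of all tested genes in this direction, but since bnc1 was chosen by this contrast nothing is read from that count. The group means were 1.66 ± 2.41 CPM (SD, n = 7) and 118 ± 68.5 CPM (SD, n = 8), and the fitted log2 fold change was 5.84 (SE 0.62), rank 32 from the top among 12914 tested genes. bnc1 was highest in mutant replicates 4, 5, 6 and 8, at 171 to 193 CPM, the mutant libraries with the most detected accessions and the most counts. In mutant replicates 1, 2, 3 and 7 it was 9.60 to 87.7 CPM, and in the siblings other than replicate 1 at most 2.50 CPM. In bulk tissue, more cells of a type and more RNA per cell cannot be told apart.

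**Figure D1:**
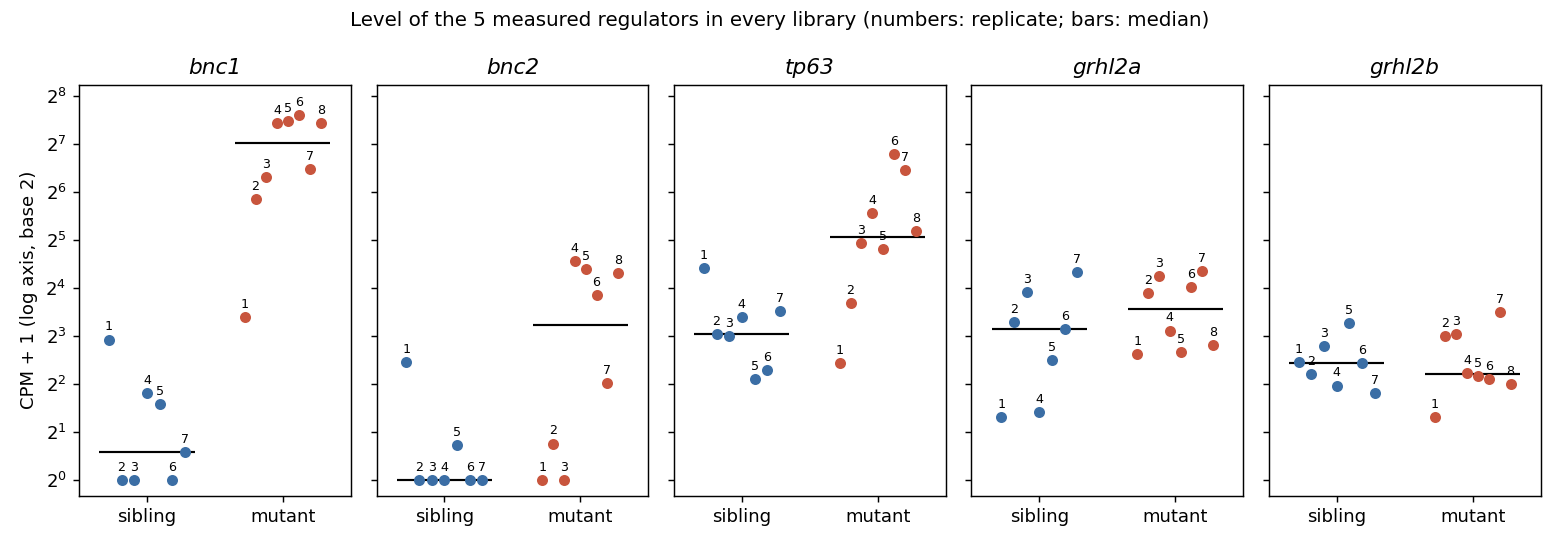
Level of each matched regulator in each library, in CPM plus 1 on a log axis, with 7 sibling and 8 mutant points per gene and the replicate number beside each point and bars at the medians. The bnc1 points of the groups do not overlap, tp63 overlaps in 2 mutants, bnc2 lies above every sibling in 4 mutants, and the grhl2a and grhl2b points share one range.

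tp63, the regulator of the basal layer, was detected in every library of both groups, and it rose in the mutants. In siblings it ran from 3.32 to 20.4 CPM, with a median of 7.25 CPM, and in mutants from 4.43 to 109.8 CPM, with a median of 32.4 CPM. The highest sibling was again replicate 1. Mutant replicates 6 and 7 had the highest levels, 109.8 and 86.7 CPM, and mutant replicates 1 and 2, at 4.43 and 11.9 CPM, lay within the sibling range. The other 6 mutants were above every sibling. The means were 8.87 ± 5.75 CPM (SD, n = 7) and 43.9 ± 36.5 CPM (SD, n = 8), and the fitted log2 fold change was 2.21 (SE 0.54, edgeR adjusted p = 0.0105). tp63 thus passed the threshold of 0.05 and grhl2a did not, so 1 of the 2 genes tested besides bnc1 was called higher, while 13.6% of all tested genes were called higher. By size of its fold change tp63 had rank 671 of 12914.

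The tp63 call was lost under 5 of 27 alternatives. Without mutant replicates 4, 5, 6 and 8 its log2 fold change was 1.80 (edgeR adjusted p = 0.129), and with the summed level of keratinocyte genes as a term it was 0.60 (adjusted p = 0.80). The fitted values of bnc1 under the same settings were 4.76 and 5.15, a description only, since it was picked for its rise. The keratinocyte genes of that term also differ by genotype, and the cause of the lost tp63 call was not tested.

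**Figure D2:**
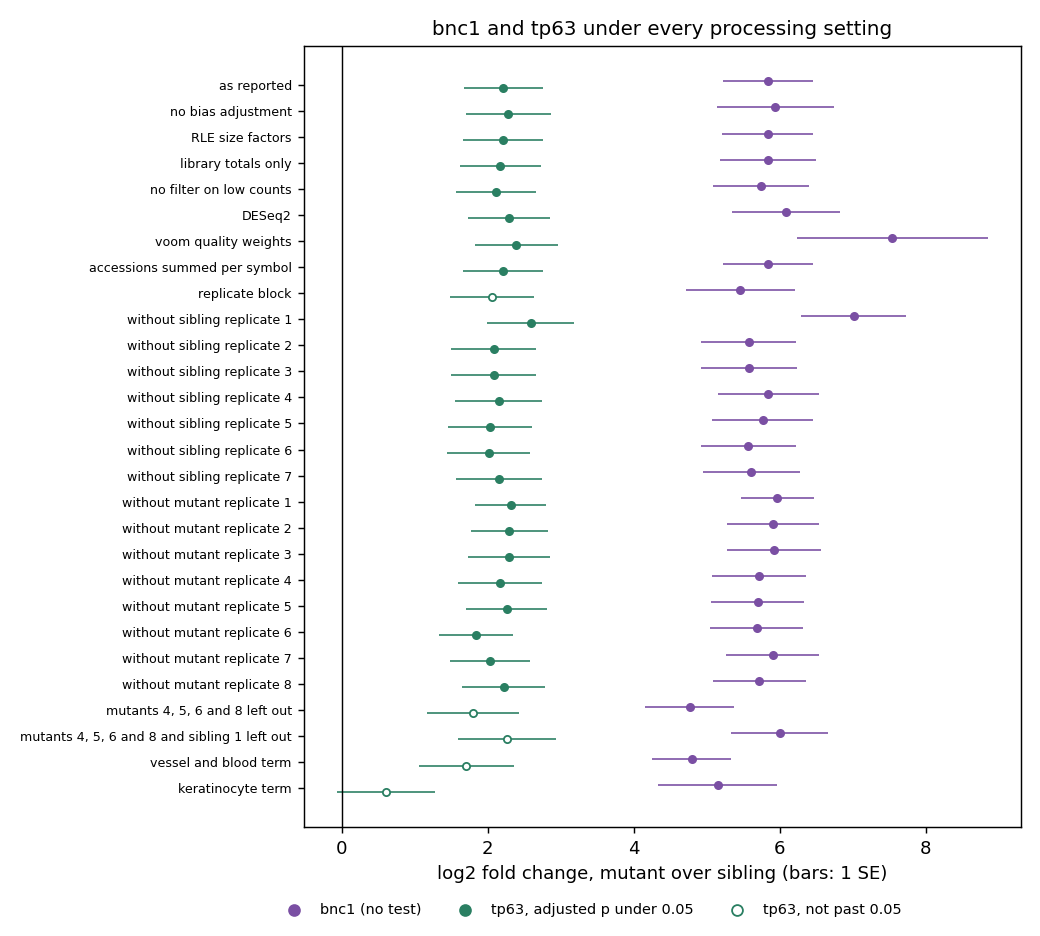
Fitted log2 fold changes (mutant over sibling, bars 1 SE) of bnc1 and tp63 under each setting, fits that leave out 1 library included. bnc1 values lie between 4.76 and 7.54 and tp63 values between 0.60 and 2.59, with open points where the tp63 adjusted p was not under 0.05.

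The counts of bnc1 and tp63 were also set side by side, as a description only, because bnc1 was picked for its rise in this contrast. Of the counts of these 2 genes in a library, bnc1 made up 0 to 37.5% in siblings and 50.3 to 86.7% in mutants. No sibling reached the lowest mutant, which was replicate 7, and the lowest siblings were replicates 2, 3 and 6, with no bnc1 count among 14, 13 and 8 counts. The highest sibling, replicate 5, had 3 bnc1 counts of 8. Its Wilson 95% interval, 13.7 to 69.4%, takes in the 50.3% of mutant replicate 7. Summed over libraries the share was 17.4% in siblings (32 of 184 counts, Wilson 95% interval 12.6 to 23.5%) and 75.3% in mutants (2827 of 3756 counts, 73.9 to 76.6%). Sibling replicate 1 alone held 90 of the 184 sibling counts and 22 of the 32 of bnc1. The summed intervals treat the libraries of a group as a single sample and leave out the spread between libraries. All these intervals cover counting error only, and the share has no test because bnc1 was selected on its rise. In mutant replicate 1 the tp63 level of 4.43 CPM was below the sibling median, and the bnc1 level was 9.60 CPM. In sibling replicate 1 the tp63 level of 20.4 CPM was above 2 mutants, while its bnc1 level of 6.61 CPM was below every mutant. The share compares libraries, not the levels of the 2 genes, since transcript lengths were not used.

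**Figure D3:**
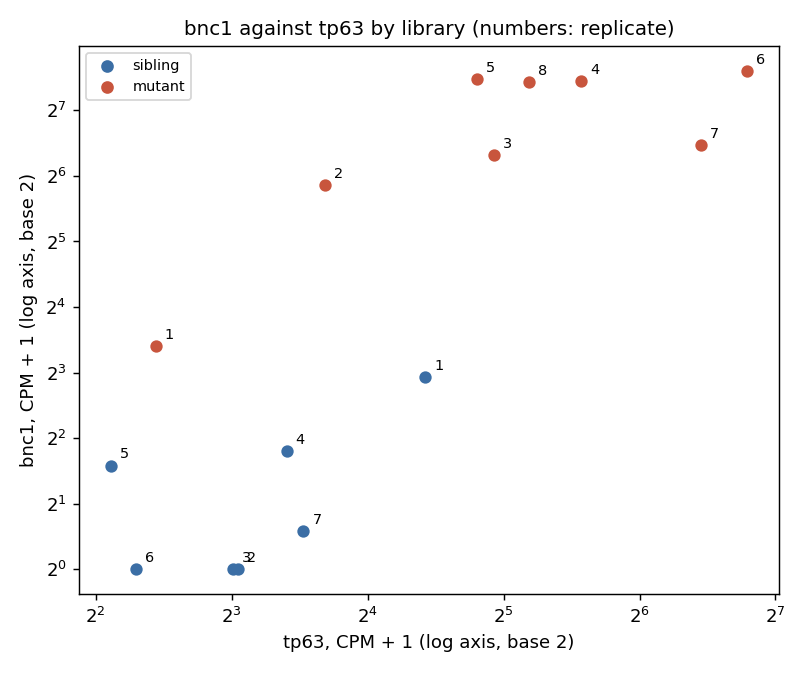
bnc1 against tp63 in each library, both in CPM plus 1 on log axes, with the replicate number beside each point. Mutant replicates 1 and 2 lie within the sibling range of tp63 and above every sibling in bnc1, and the other 6 mutants lie above the highest sibling, 20.4 CPM, in tp63 as well.

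bnc2, the second basonuclin, was seen mainly in the mutant libraries with the most detected accessions and the most counts. In siblings it ran from 0 to 4.51 CPM, with a median of 0 CPM, and in mutants from 0 to 22.8 CPM, with a median of 8.33 CPM. Mutant replicates 4, 5, 6 and 8 had 13.6 to 22.8 CPM, from 33 to 92 counts, and lay above every sibling, whereas mutant replicates 1 and 3 had no count. Among siblings only replicates 1 and 5 had a count, 15 and 1. bnc2 did not pass the low-count filter of the fit. An exact two-sided permutation test on log2 CPM, over all 6435 ways to split 15 libraries into 7 and 8, gave p = 0.0340 for a difference of 2.14 between the group means. In a fit without the filter its log2 fold change was 3.35 (SE 0.83, edgeR adjusted p = 0.00819). bnc2 had 4 accessions, and the one used held 284 counts while the next held 80. In sibling replicate 1 both had 15 counts, so how reads were divided among its transcripts is uncertain.

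The grainyhead-like genes did not separate the groups. grhl2a ran from 1.5 to 19.1 CPM in siblings, with a median of 7.82 CPM, and from 5.17 to 19.5 CPM in mutants, with a median of 10.8 CPM. Only 1 mutant, replicate 7, exceeded every sibling, and the ranges otherwise overlapped. The log2 fold change was 0.48 (SE 0.48, edgeR adjusted p = 0.509), and its 95% interval of -0.56 to 1.53 leaves room for a rise as well as a fall. Within the siblings grhl2a was lowest in replicates 1 and 4, with 5 and 4 counts.

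grhl2b, known from the zebrafish inner ear, ran from 2.51 to 8.64 CPM in siblings (median 4.40 CPM) and from 1.48 to 10.3 CPM in mutants (median 3.61 CPM). The sibling range lay inside that of the mutants, with 1 mutant above every sibling and 1 below. It had at most 20 counts in a library and did not pass the filter. The exact two-sided permutation test on log2 CPM gave p = 0.989 for a difference of -0.0048, and the fit without the filter gave a log2 fold change of -0.03 with a 95% interval of -0.99 to 0.93.

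Other transcription factors of the surface epithelium gave the setting for these genes. Of 15 listed, 12 were tested, 4 were higher, none was lower, and the median log2 fold change was 0.58, against 13.6% of all tested genes higher and a median of 0.04. That median was 0.19 without mutant replicate 6 and 0.99 without sibling replicate 1. tfap2c, an AP-2 factor of the early ectoderm, ran from 0 to 3.31 CPM in siblings and 4.43 to 111 CPM in mutants, and rose by 4.95 on the log2 scale (SE 0.65, edgeR adjusted p = 1.73e-05). Its groups did not overlap, which held for 1.57% of all tested genes in this direction. Like bnc1 and tp63 it was lowest in mutant replicate 1 and highest in mutant replicate 6. With siblings this low, tfap2c passed the low-count filter through the mutants. It was tested in 8 of the 15 fits that left out 1 library, and not without mutant replicates 4, 5, 6 and 8. The distal-less gene dlx3b, active at the border of the neural plate and in ectoderm, rose by 3.02 (SE 0.61, adjusted p = 0.00311). All 8 mutants lay above every sibling, but only just: 22.991 CPM in mutant replicate 8 against 22.985 CPM in sibling replicate 6. The related gene dlx5a rose by 2.14 (SE 0.47, adjusted p = 0.00571), with 6 of 8 mutants above every sibling. The GATA factor gene gata2a was the other higher gene (3.12, SE 0.76, adjusted p = 0.00763), and it is named after its values were seen. Siblings other than replicate 1 had at most 1.25 CPM, so gata2a passed the low-count filter mainly through the mutants. Only 4 of 8 mutants, replicates 4, 5, 6 and 8, lay above every sibling. Within the groups gata2a was highest in sibling replicate 1 and mutant replicate 5. The summed levels of endothelium and of erythrocyte genes, given below, were highest in the same libraries. tp63 was highest in the same sibling but in mutant replicate 6.

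The remaining 8 regulators did not pass the threshold, among them genes with high levels in sibling ducts. elf3, an ETS factor of simple epithelia, had 484 ± 117 CPM over the siblings and 512 ± 259 CPM over the mutants (SD, n = 7 and 8). ovol1b, the ovo-like paralog of ovol1a, averaged 74.7 ± 20.1 CPM over the siblings (SD, n = 7) and 42.5 ± 31.9 CPM over the mutants (SD, n = 8). Its log2 fold change was -0.90 (SE 0.34, edgeR adjusted p = 0.0731), with 6 mutants below every sibling and mutant replicate 1 above every sibling. elf3 and ovol1b were chosen after their values were seen.

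**Figure D4:**
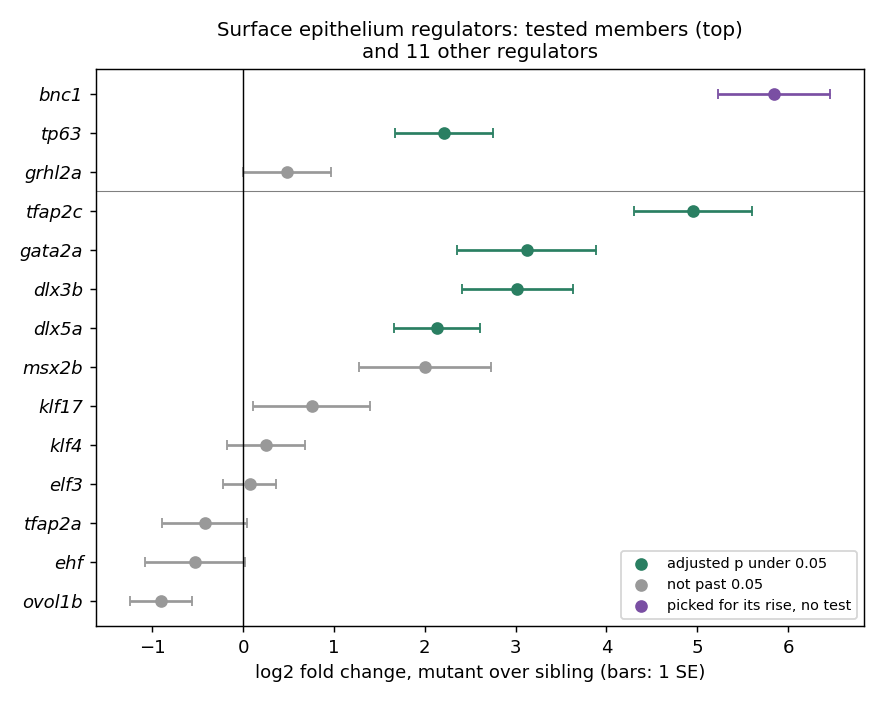
Log2 fold changes (mutant over sibling, bars 1 SE) of the 3 tested members and of 11 other surface epithelium regulators, coloured by whether the edgeR adjusted p was under 0.05. tfap2c, gata2a, dlx3b and dlx5a are the 4 other regulators past the threshold, and ovol1b is the lowest at -0.90.

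Structural genes of the skin were counted by layer. Of 13 periderm genes tested, 9 were higher and none lower, with a median log2 fold change of 2.60. Over all tested genes 13.6% were higher and the median was 0.04. The keratin krt92 rose by 4.00 (SE 0.62, edgeR adjusted p = 0.000455) and krt97 by 2.05 (SE 0.36, adjusted p = 0.00108), and krt94 by 3.0 (SE 0.68, adjusted p = 0.00643), although counts of such close paralogs depend on read assignment. Summed periderm levels were 593 to 2518 CPM in siblings and 2303 to 11897 CPM in mutants, and 7 mutants were above every sibling. Of 11 basal keratinocyte genes tested, 3 were higher and none lower, beside 13.6% of all tested genes higher, with a median of 0.49. They were cldn1, a tight junction claudin (5.86, SE 0.91, adjusted p = 0.000153), and the basement membrane genes frem2a (2.56, SE 0.71, adjusted p = 0.0177) and frem3 (1.69, SE 0.55, adjusted p = 0.0385). cldn1 had at most 8.53 CPM in a sibling and its highest levels, 277 and 265 CPM, in mutant replicates 6 and 7, the libraries where tp63 was also highest. With siblings this low, cldn1 passed the low-count filter through the mutants, as tfap2c did. Among listed genes that did not pass the filter, the hemidesmosome collagen gene col17a1a was at 0 in every sibling and at most 0.247 CPM in a mutant. This is no group difference, since col17a1a had 1 count in all libraries together. The integrin gene itgb4 reached 3.91 CPM in a sibling and 5.76 CPM in a mutant. Others were well detected in both groups without passing the threshold, such as perp, a p63 target in mice, with means of 245 CPM for siblings and 286 CPM for mutants. The basal keratin krt1-19e ran from 35.5 to 194 CPM in siblings and from 61.7 to 1453 CPM in mutants (log2 fold change 1.86, SE 0.68, edgeR adjusted p = 0.0640). col17a1a, itgb4, perp and krt1-19e were chosen after their values were seen.

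Leaving out 1 library at a time gave 3 to 6 calls among the other surface epithelium regulators, 5 to 11 among the periderm genes and 2 to 4 among the basal keratinocyte genes. Without mutant replicates 4, 5, 6 and 8, the threshold was passed by 2 of the other surface epithelium regulators, 2 periderm genes and 1 basal keratinocyte gene, and the periderm median was 1.40. The lowest periderm count, 5, was that without mutant replicate 6, and without sibling replicate 1 the basal keratinocyte median was 0.73. The frem3 call was lost under 15 alternatives.

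Junction and protease genes, a class with known grainyhead-like targets, gave 1 higher gene of 13 tested, the plakophilin pkp3b (0.37, SE 0.12, edgeR adjusted p = 0.0402), none lower and a median of 0.09, so the share of higher genes was no greater than the 13.6% over all tested genes. This call was lost under 21 of 27 alternatives. Of 11 ionocyte genes only 2 were tested and neither passed the threshold.

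Some genes listed for the fin fold and dermal mesenchyme, which a picked fragment may carry, were also higher. Over all tested genes 13.6% were higher. Of 9 fin fold and dermal mesenchyme genes tested, 5 were higher and none lower, with a median of 2.78. They include and2 (5.24, SE 0.82, edgeR adjusted p = 0.000478) and and1 (3.59, SE 0.83, adjusted p = 0.00758), which encode the actinodin fibres of the fin fold, and the collagen gene col1a1a (2.78, SE 0.66, adjusted p = 0.00866). and2 ran from 0 to 18.4 CPM in siblings and passed the low-count filter through the mutants. The higher genes of this list not named here were low in most siblings and passed that filter mainly through the mutants too. Both and1 and and2 were highest in mutant replicates 7 and 6, where tp63 was also highest. The summed level of the list was 61.7 to 578 CPM in siblings and 257 to 2124 CPM in mutants, with 6 mutants above every sibling. The count of 5 became 8 without sibling replicate 1 and 2 without mutant replicates 4, 5, 6 and 8, where the median was 0.64. Of the list, and3 and col1a2 were at 0 in every sibling, and they are named for that. For col1a2 this is no group difference, since it had 1 count in all libraries together, in mutant replicate 4.

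Vessel and blood genes set sibling replicate 1 apart, the sibling with the highest bnc1, bnc2 and tp63. In that library endothelium genes summed to 1336 CPM, against 88.9 to 166 CPM in the other siblings, and erythrocyte genes to 2191 CPM, against 203 to 233 CPM. In mutants the sums were 246 to 2074 CPM and 511 to 4539 CPM. Of 13 endothelium genes tested, 1 was higher (she, an adaptor gene of endothelium, 2.72, SE 0.84, edgeR adjusted p = 0.0318). This share of higher genes was no greater than the 13.6% over all tested genes. The she call was lost under 17 alternatives, and its fitted value rests on sibling replicate 1, the only sibling with a count (without it 9.35, a fit against siblings all at 0 that depends on the prior count). With the other siblings at 0, she passed the low-count filter mainly through the mutants. The endothelium count was 12 without sibling replicate 1, 3 without mutant replicate 1, 2 without mutant replicate 3, and 0 without any one of mutant replicates 4, 5, 6 and 8 or sibling replicates 2 to 7. Of 7 erythrocyte genes, hbbe1.1, a globin gene, was higher (2.41, SE 0.82, adjusted p = 0.0497) and tfr1a, a transferrin receptor gene, lower (-0.60, SE 0.12, adjusted p = 0.00306). The hbbe1.1 call was lost under 15 alternatives, and without sibling replicate 1 its value was 4.33. The erythrocyte count of 2 became 7 without sibling replicate 1, and 1 without any one of mutant replicates 4, 5, 6 and 8 or sibling replicates 2 to 7. Named for their low values, the erythroid factor gene gata1a was at 0 in every sibling, and the vessel receptor gene kdrl reached at most 1.80 CPM in a sibling and 4.24 CPM in a mutant. With the summed level of vessel and blood genes as a term, the log2 fold change of tp63 was 1.71 (edgeR adjusted p = 0.128). bnc2 did not pass the filter of that fit. The cause of the rise of tp63 and bnc2 was not tested.

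Deviations within the groups were set beside those of the gene lists. As a description over 15 libraries, with each library's deviation from its genotype mean on a log2 scale, bnc1 deviated with the fin fold and dermal mesenchyme sum (Pearson r = 0.82) and with the endothelium sum (r = 0.74), and little with the basal keratinocyte (r = 0.22) and periderm sums (r = 0.09). bnc2 deviated with the erythrocyte sum (r = 0.87) and the endothelium sum (r = 0.83). tp63 deviated with the fin fold and dermal mesenchyme sum (r = 0.77) and the basal keratinocyte sum (r = 0.61). Against the sum of the other surface epithelium regulators the values were -0.73 for bnc1, -0.81 for bnc2, -0.42 for tp63 and 0.61 for grhl2a, and against the junction and protease sum -0.66, -0.85, -0.46 and 0.51. Against the pronephric duct sum the values were -0.82 for bnc1, -0.90 for bnc2 and -0.57 for tp63. The points share libraries and depth, and since CPM values of a library share one total, a rise of some genes lowers others. bnc1 and tp63 deviated together (r = 0.71), whereas grhl2a did not follow tp63 (r = 0.12).

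**Figure D5:**
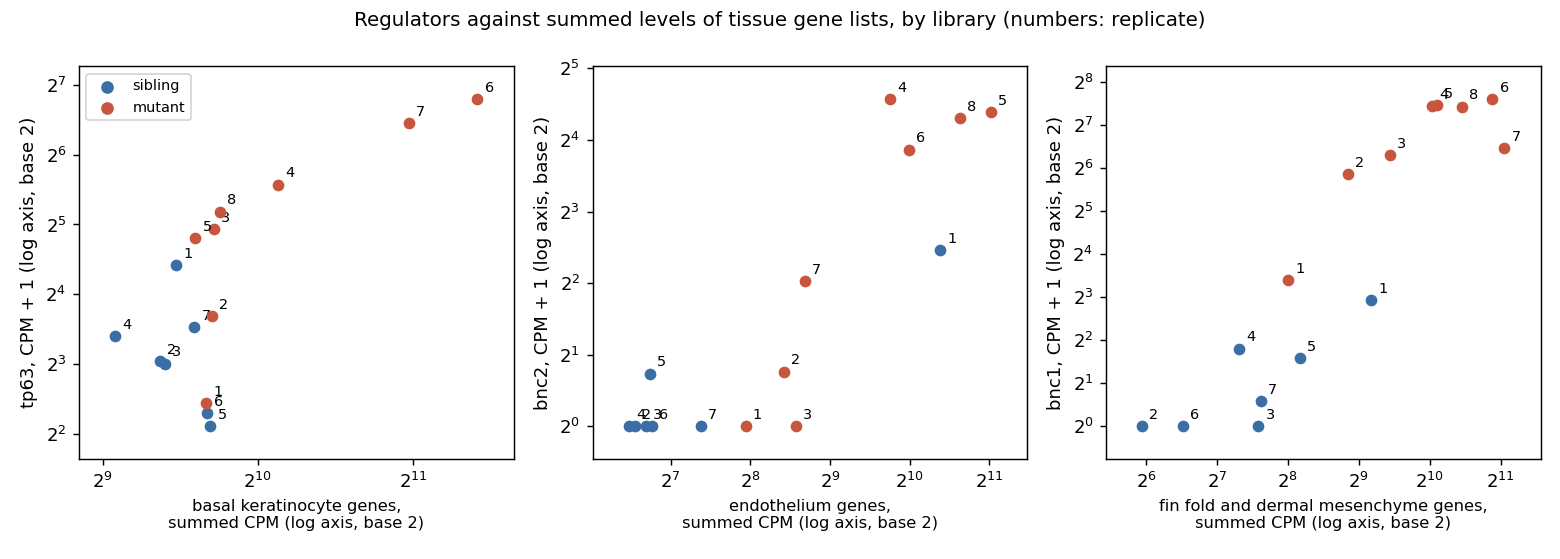
Levels of tp63, bnc2 and bnc1 (CPM plus 1, log axes of base 2) against the summed CPM of basal keratinocyte, endothelium, and fin fold and dermal mesenchyme genes, by library. Mutant replicates 6 and 7 are highest for tp63 and for basal keratinocyte genes, and sibling replicate 1 lies beside the mutants for endothelium genes with a bnc2 level of 4.51 CPM.

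The genes whose deviations were most like those of bnc1, among 8752 with a mean of at least 10 CPM, were c1qtnf12 (r = 0.977), smad6a (r = 0.972), nanos1 (r = 0.971), hhip (r = 0.954) and calcrla (r = 0.953). c1qtnf12, which encodes a secreted C1q and TNF-related protein, ran from 0 to 14.1 CPM in siblings and from 3.69 to 124 CPM in mutants. calcrla, a calcitonin receptor-like gene of the vasculature, did not pass the threshold between groups (log2 fold change 1.15, SE 0.61, edgeR adjusted p = 0.198). For tp63 they were limd2 (r = 0.915), u2af2b (r = 0.906), zgc:92360 (r = 0.904), eva1bb (r = 0.903) and si:ch211-136m16.8 (r = 0.897). Of these, u2af2b, a splicing factor gene, had means of 70.9 CPM for siblings and 86.3 CPM for mutants (0.29 on the log2 scale, SE 0.15, adjusted p = 0.169), while limd2 rose by 2.10 (SE 0.49, adjusted p = 0.00820). Neither list of 5 holds a gene of the other.

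Genes next to bnc1 and tp63 on the chromosome, by their order in the assembly GRCz12tu, were looked at for a shared change. The bnc1 neighbour homer2 had a log2 fold change of 0.13 (edgeR adjusted p = 0.825). The nearest tested neighbours of tp63 were tprg1, tbc1d23 and tomm70a, with log2 fold changes of -0.05, -0.20 and -0.18, and none passed the threshold. Near bnc2, sh3gl2a was called higher (1.17, SE 0.36, adjusted p = 0.0304) and cntln was not called (0.25, SE 0.24, adjusted p = 0.498). In that assembly 2 noncoding loci overlap bnc2, and whether reads were counted by strand is not given in the sources used here.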

How the data were processed

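RNA was sequenced from pronephric duct fragments in 15 libraries. Each RefSeq accession has a raw count per library in the 2 tables the authors deposited, 1 table for each sequencing index per the file headers. Per the submitters' processing notes, cutadapt, FastQC, STAR, featureCounts and edgeR were named, with the build GRCz11. Their roles, versions and strand setting, and whether counts are of reads or of molecules, are not given in the sources used here, so intervals and floors cover counting error only. Accessions listed in only 1 table were set to 0 in the other (28255 of 33298 were in both). Symbols came from a RefSeq table of GRCz12tu, with the version ignored, and matched 20452 accessions (61.4%) with 87.6% of counts.

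Mutant and sibling counts were tested in R 4.3.3 by edgeR 4.0.16: TMM factors, filterByExpr by group, robust glmQLFit with bias adjustment, glmQLFTest, and Benjamini-Hochberg adjustment over all 12914 tested accessions at a threshold of 0.05. CPM values carry the TMM factors, and a prior count of 2 was added for log2 CPM. Members that did not pass the filter had an exact permutation test (scipy 1.17.1). Intervals of fold changes use the SE and 13 degrees of freedom. limma 3.58.1 and DESeq2 1.42.0 served as alternatives. Others changed the scaling, the filter or the way accessions were summed, left out libraries, or added a term for vessel and blood or for keratinocyte genes. The keratinocyte term is the log2 sum of basal keratinocyte and periderm genes, which also differ by genotype. The fit was also run on simulated counts with a common spread and without the split among the mutants. That run does not show how such differences between libraries affect the calls.

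The text names the members, actl6a, up to 3 genes per list and direction past the threshold with the smallest p, and the 5 genes most like bnc1 and tp63. A few others were chosen after their values were seen: gata2a, elf3, ovol1b, col17a1a, itgb4, perp, krt1-19e, and3, col1a2, gata1a, kdrl, cdh17, slc12a3 and hnf1ba, besides neighbours of the members. The members and lists were chosen with earlier results of these data known. Columns were matched to libraries by the sample barcodes in the labels. Sequences of the members were not used here. The values of 1 listed regulator are not reported here.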

Additional observations from a re-analysis of the deposited data

Results flagged for a closer look

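In 4 of 32 groups of values examined, the highest or lowest library stood further from its nearest neighbour, as a share of the group's range, than Dixon's 95% critical value. Chance alone would give about 1.6 such cases in 32 independent groups, or about 1 in 20. These groups share the same libraries and are not independent, so no excess is read from the 4 cases. All but the bnc1 case come from sibling replicate 1. The bnc1 level of mutant replicate 1, 9.60 CPM, was the lowest of the 8 mutants, and its gap to the next on the log2 scale was 0.587 of the range. The bnc2 level of sibling replicate 1, 4.51 CPM, was the highest of the 7 siblings, with a gap of 0.686 of the range. The same library had the highest sums of erythrocyte genes, 2191 CPM with a gap of 0.941, and of endothelium genes, 1336 CPM with a gap of 0.769.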

How the results depend on the processing

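The number of genes that differed, 2476, was 1631 without the bias adjustment, 3960 without the low-count filter, 5566 with limma and voom quality weights, 903 with the vessel and blood term and 143 with the keratinocyte term. It was 511 without mutant replicates 4, 5, 6 and 8, and 590 when sibling replicate 1 was left out as well. Leaving out 1 library at a time gave 1621 (without mutant replicate 8) to 3390 (without mutant replicate 1). Besides bnc1, 1 member (tp63) was called; without the filter the count was 2 (with bnc2), and it was 0 with the replicate block, without those 4 mutants, without them and sibling replicate 1, with the vessel and blood term and with the keratinocyte term. It was 1 whichever single library was left out, with tp63 at 1.84 to 2.59. The log2 fold change of tp63 was 2.26 (adjusted p = 0.0780) without the 4 mutants and sibling replicate 1, 1.71 (adjusted p = 0.128) with the vessel and blood term, and 2.06 (adjusted p = 0.0511) with the replicate block, which called 1097 genes. The block fit also left out mutant replicate 8, which has no sibling of its number. Same-numbered libraries correlated from -0.54 to 0.26, and 0 of 7 siblings correlated best with their own number. These values give no sign that replicate numbers pair the libraries, but they cannot exclude it. The fitted value of bnc1 was 7.54 with voom quality weights and 4.76 to 7.02 otherwise. With the keratinocyte term grhl2a was -0.39, and calcrla was -0.56 without the 4 mutants and -0.37 with the vessel and blood term, each with the sign turned. With the keratinocyte term actl6a was -1.22, no longer past the threshold. The causes were not tested. The fits without the bias adjustment and without the 5 libraries were added after seeing the data. Members with a few counts per library, bnc2 and grhl2b, are limited by depth.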
